A study of Mus musculus with 32 samples.

Results

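Interferon response and antigen processing genes were followed in mouse embryonic stem (ES) cells as they were driven out of the stem cell state by RNA interference (RNAi) or by chemicals. The set holds 35 named genes, chosen with earlier results of these data known. A gene counted as measured where an array carried a probe annotated to its symbol and to no other. On that rule 32 of the 35 were measured on the RNAi arrays, out of 18193 genes, and 31 on the 2-colour arrays, out of 14461 genes. In all 33 were measured on at least 1 platform and 30 on both. Psme2 and Isg15 had only probe sets shared with other genes on the RNAi arrays and Ifi44 had none. Psme2, Iigp1, Ifi44 and Bst2 had none of their own on the 2-colour arrays. Of the 31 genes there, 28 had a value in every treatment and day and could be tested, among 12034 such genes. Ifit1, Isg15 and Usp18 had values on 2, 9 and 5 of the 18 arrays and were not tested.

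All cells were of the E14TG2a line, an established mouse ES cell line. For RNAi they were transfected with a pSUPER-puro plasmid against Pou5f1 (4 arrays), against Nanog (5 arrays) or with the empty parental vector (5 arrays), and were selected in 1 µg/ml puromycin for 3 days, starting 24 h after transfection. Pou5f1 encodes Oct4, and Oct4 and Nanog are transcription factors that hold ES cells in their undifferentiated state. The vector arrays carry the plasmid and the drug selection, but no group received RNAi against an unrelated target, so an effect of expressing any hairpin RNA and the effect of losing the target cannot be told apart. In the other experiment E14 cells received 0.1 µM retinoic acid (RA), 1% dimethyl sulfoxide (DMSO) or 3 mM hexamethylene bisacetamide (HMBA), and were sampled on days 2, 4 and 6. Each treatment and day has 2 arrays of opposite dye orientation against untreated E14 cells, so each treatment has 6 arrays. The labels call these dye-swap replicates and do not say whether both arrays of a day hold the same RNA; if they do, a treatment has 3 samples, and calls lost when the arrays of a day are averaged are named below for the means over days. RNAi values are levels on a log2 scale, and treatment values are log ratios of treated to untreated cells, read as log2 although no label states the base. Differences are printed as log2 estimate ± standard error, and a gene was called higher or lower at an adjusted p under 0.05 over all probes of the platform. The labels do not say whether replicate arrays came from separate cultures, so these p-values measure the spread between arrays, which may be technical. Untreated cells were the partner on all 18 arrays. If 1 untreated RNA served them all, its own spread is left out of every comparison with untreated cells, and the treatments share it. If days or treatments had their own untreated RNA, its spread also enters the comparisons between them.

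Interferons are secreted proteins that warn cells of infection. They bind cell surface receptors, whose kinases activate transcription factors. A complex that holds STAT2 and IRF9 binds the interferon-stimulated response element, while interferon gamma acts through the gamma-activated site and induces IRF1, which in turn activates further targets. Those targets include GTPases that attack intracellular vacuoles, effectors that block viral RNA, and the immunoproteasome and peptide transporter that supply peptides to major histocompatibility complex (MHC) class I molecules. Undifferentiated ES cells are known to respond weakly to interferon and to display little MHC class I, while their Ifitm genes are known to be active without interferon.

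The knockdowns were checked on the targeted genes. Pou5f1 levels were 9.19, 9.21, 8.73 and 9.01 in Pou5f1 RNAi cells, 11.24, 11.21, 11.18, 11.47 and 11.51 in Nanog RNAi cells, and 11.34, 11.31, 11.46, 11.51 and 11.48 in vector cells, a change of -2.38 ± 0.10 (adjusted p = 1.1e-13) with Pou5f1 RNAi. Nanog levels were 9.82, 9.75, 9.57 and 9.64 in Pou5f1 RNAi cells, 9.16, 9.14, 9.26, 9.40 and 9.47 in Nanog RNAi cells, and 11.003, 11.05, 11.06, 11.19 and 11.16 in vector cells, and Nanog changed by -1.81 ± 0.08 (adjusted p = 2.1e-12) with Nanog RNAi. No library went against its label on these genes. Nanog also fell with Pou5f1 RNAi, by 1.40 ± 0.09. Of 10 ES cell markers, 10 fell with Pou5f1 RNAi and 7 with Nanog RNAi, while 10 of 10 trophectoderm markers rose in both. Array means of the trophectoderm list were 9.74 to 9.97 with Pou5f1 RNAi, 6.48 to 6.95 with Nanog RNAi and 5.30 to 5.42 with vector (log2). Those of 8 primitive endoderm markers were 5.47 to 5.59 with Pou5f1 RNAi, 6.35 to 6.64 with Nanog RNAi and 6.07 to 6.22 with vector. The knockdowns thus lay on opposite sides of vector for this list. The part of these cell type shifts in the results below was not tested, and in bulk RNA, as here, fewer cells of a type cannot be told apart from less RNA per cell. Of 8 leukocyte markers, 1 rose and 2 fell with Pou5f1 RNAi and 1 rose with Nanog RNAi, led by Laptm5 (-1.15 ± 0.13 and 1.202 ± 0.12) and Cd68 (1.18 ± 0.13 and -0.31 ± 0.12), and their part in the results was not tested. One 2-colour array, DMSO day 4 replicate 2, held 11257 values, against 15679 to 20019 on the others, and lacked 7 of the 28 tested members.

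Members moved both ways with Pou5f1 RNAi: the Ifitm genes, Psmb10, Irf1, Irgm1 and Ifit2 fell, while the peptide-loading genes Tapbp, B2m and Tap1, several GTPases and several antiviral effectors rose. In counts, 11 of 32 members rose and 7 fell. Over all genes 20.6% rose and 19.5% fell, and the median member changed by -0.03 against -0.04 for all genes. With Nanog RNAi 4 members rose and 5 fell, against a background of 12.1% higher and 8.77% lower, with medians of 0.05 and -0.02 (log2). The 2 RNAi comparisons share the 5 vector arrays. Set directly against each other, Pou5f1 RNAi and Nanog RNAi cells differed in 18 of 32 members, 11 higher and 7 lower in Pou5f1 RNAi cells, against 18.8% and 18.6% of all genes.

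The 3 Ifitm genes encode small membrane proteins that restrict virus entry. Each fell in both knockdowns. Ifitm1 levels were 8.68, 8.51, 8.54 and 8.63 in Pou5f1 RNAi cells, 10.44, 10.40, 10.31, 10.64 and 10.62 in Nanog RNAi cells, and 11.46, 11.49, 11.54, 11.83 and 11.77 in vector cells. Those of Ifitm3 were 8.16, 8.06, 8.12 and 7.96 in Pou5f1 RNAi cells, 10.32, 10.41, 10.37, 10.46 and 10.47 in Nanog RNAi cells, and 10.90, 10.93, 10.97, 10.98 and 10.88 in vector cells. Ifitm2, by comparison, read 9.72, 9.64, 9.71 and 9.75 in Pou5f1 RNAi cells, 10.005, 10.03, 10.01, 10.17 and 10.31 in Nanog RNAi cells, and 11.02, 11.22, 11.26, 11.31 and 11.28 in vector cells. For all 3 genes every Pou5f1 RNAi array lay below every Nanog RNAi array, and every Nanog RNAi array lay below every vector array. Here and below, the share of all genes whose groups lie apart was not counted. It may be large, since 20.6% of genes rose and 19.5% fell with Pou5f1 RNAi. The changes with Pou5f1 RNAi were -3.03 ± 0.09 (adjusted p = 8.7e-16) for Ifitm1, -2.86 ± 0.07 (adjusted p = 2.9e-17) for Ifitm3 and -1.51 ± 0.08 (adjusted p = 6e-12) for Ifitm2, which are 8.16-fold, 7.26-fold and 2.85-fold falls. Nanog RNAi changed Ifitm1 by -1.14 ± 0.09 (adjusted p = 9.8e-09), Ifitm2 by -1.11 ± 0.08 (adjusted p = 1.8e-09) and Ifitm3 by -0.53 ± 0.07 (adjusted p = 7.1e-06). The gap between the knockdowns was -2.33 ± 0.07 for Ifitm3 and -1.89 ± 0.09 for Ifitm1, but -0.40 ± 0.08 for Ifitm2 (adjusted p = 0.00067).

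Genes that load peptides onto MHC class I rose with Pou5f1 RNAi in 3 of 4 cases, against 20.6% of all genes. Tapbp encodes tapasin, which bridges the class I molecule to the peptide transporter. Its levels were 8.30, 8.10, 8.48 and 8.21 in Pou5f1 RNAi cells, 6.89, 7.08, 7.10, 6.995 and 7.06 in Nanog RNAi cells, and 6.14, 6.42, 6.003, 5.98 and 6.65 in vector cells. The 3 groups did not overlap, and Tapbp rose by 2.03 ± 0.12 (adjusted p = 1.5e-11) with Pou5f1 RNAi and by 0.79 ± 0.11 (adjusted p = 2.9e-05) with Nanog RNAi. A second Tapbp probe set read 6.50 ± 0.31 with Pou5f1 RNAi (SD, n = 4), 5.58 ± 0.14 with Nanog RNAi and 5.37 ± 0.11 with vector (n = 5 each). B2m, the invariant light chain of class I molecules, read 9.13, 9.03, 9.20 and 8.93 in Pou5f1 RNAi cells, 8.47, 8.40, 8.44, 8.25 and 8.65 in Nanog RNAi cells, and 8.36, 8.25, 8.20, 8.11 and 8.24 in vector cells. Pou5f1 RNAi arrays stood above all others, and B2m rose by 0.84 ± 0.09 (adjusted p = 8.3e-08), while Nanog RNAi gave 0.21 ± 0.08 (adjusted p = 0.09). Tap1, a subunit of the peptide transporter of the endoplasmic reticulum, read 5.52, 5.80, 5.61 and 5.60 in Pou5f1 RNAi cells, 4.93, 5.08, 5.13, 5.21 and 5.16 in Nanog RNAi cells, and 4.85, 5.14, 4.79, 4.72 and 4.86 in vector cells. That probe set rose by 0.76 ± 0.09 (adjusted p = 6.8e-07), but the other 3 Tap1 probe sets read 3.08, 4.44 and 3.37 with Pou5f1 RNAi, against 3.35, 4.32 and 3.575 with vector. With all 4 averaged, the Tap1 change was 0.10 (adjusted p = 0.31), so its call rests on 1 of 4 probe sets. Tap2, the partner subunit of Tap1, changed by -0.08 ± 0.09 (adjusted p = 0.57) with Pou5f1 RNAi and -0.01 ± 0.08 (adjusted p = 0.96) with Nanog RNAi, without a call.

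The immunoproteasome subunits did not follow the loading genes. Psmb10 encodes a catalytic subunit that replaces a constitutive one and trims peptides for class I molecules. Its levels were 6.37, 6.22, 6.44 and 6.46 in Pou5f1 RNAi cells, 7.39, 7.42, 7.36, 7.49 and 7.62 in Nanog RNAi cells, and 7.14, 7.26, 7.33, 7.19 and 7.35 in vector cells. Only the Pou5f1 RNAi arrays were low, and Psmb10 fell by 0.88 ± 0.08 with Pou5f1 RNAi (adjusted p = 1.4e-08). With Nanog RNAi its mean was higher than with vector by 0.20 ± 0.07 (adjusted p = 0.079), which was not called, although every Nanog RNAi array lay above every vector array. The direct gap between knockdowns was -1.08 ± 0.08 (adjusted p = 7.1e-10). Psmb8 and Psmb9, the other catalytic subunits, changed by -0.20 ± 0.09 (adjusted p = 0.1) and -0.22 ± 0.11 (adjusted p = 0.16) with Pou5f1 RNAi, and by -0.20 ± 0.09 and -0.21 ± 0.10 with Nanog RNAi, none called. Psme1, a subunit of the proteasome activator PA28, gave 0.19 ± 0.09 (adjusted p = 0.13) and 0.20 ± 0.08 (adjusted p = 0.14) and was not called either.

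Among the interferon-induced GTPases the knockdowns parted most at Irgm1. Irgm1 belongs to the immunity-related GTPases, which regulate autophagy and act on vacuoles that hold pathogens. Its levels were 4.41, 4.53, 4.44 and 4.57 in Pou5f1 RNAi cells, 6.27, 6.49, 6.66, 6.41 and 6.46 in Nanog RNAi cells, and 4.93, 5.24, 5.10, 4.92 and 4.90 in vector cells. The order was Nanog RNAi, then vector, then Pou5f1 RNAi, with no overlap between any 2 groups. Irgm1 fell by 0.53 ± 0.09 with Pou5f1 RNAi (adjusted p = 7.1e-05) and rose by 1.44 ± 0.08 (adjusted p = 1.3e-10) with Nanog RNAi, so the direct difference was -1.97 ± 0.09 (adjusted p = 4.5e-13). Irgm2, a GTPase of the same family, ran the opposite way, at 4.76, 4.87, 4.77 and 4.996 in Pou5f1 RNAi cells, 4.05, 4.14, 4.14, 3.90 and 4.01 in Nanog RNAi cells, and 4.33, 4.58, 4.27, 4.33 and 4.51 in vector cells. It rose by 0.45 ± 0.08 (adjusted p = 0.00025) with Pou5f1 RNAi and fell by 0.36 ± 0.08 with Nanog RNAi (adjusted p = 0.0033). The direct difference for Irgm2 was 0.80 ± 0.08 (adjusted p = 1.7e-07). These levels were low. Every Irgm2 level in vector and Nanog RNAi cells, and every Irgm1 level in Pou5f1 RNAi cells, lay below the median of its own array (4.57 to 4.66).

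Gbp2b and Gbp2 are guanylate-binding proteins, large GTPases that coat and break open pathogen vacuoles. Gbp2b levels were 5.64, 5.81, 6.21 and 5.80 in Pou5f1 RNAi cells, 5.17, 5.06, 5.15, 5.21 and 5.21 in Nanog RNAi cells, and 4.25, 3.81, 4.58, 4.24 and 4.72 in vector cells. They were highest with Pou5f1 RNAi and lowest with vector, without overlap, with rises of 1.55 ± 0.14 (adjusted p = 1.6e-08) for Pou5f1 RNAi and 0.84 ± 0.13 (adjusted p = 0.0001) for Nanog RNAi. Gbp2 read 4.21, 4.23, 4.86 and 4.49 in Pou5f1 RNAi cells, 4.23, 4.19, 4.65, 4.39 and 4.81 in Nanog RNAi cells, and 3.67, 3.65, 3.66, 3.90 and 3.96 in vector cells. Both knockdowns stood above vector but not apart from each other: the rises were 0.68 ± 0.14 (adjusted p = 0.00047) and 0.69 ± 0.13 (adjusted p = 0.00068), and the direct difference of -0.01 ± 0.14 was not called (adjusted p = 0.98). The vector levels of Gbp2 were low, below the vector array medians of 4.58 to 4.66, and the vector mean of Gbp2b, 4.32, lay below them too. Gbp2 and Gbp2b are close paralogs, and a probe can take up signal from both. Igtp, a further immunity-related GTPase, was not called against vector, at 0.28 ± 0.11 (adjusted p = 0.055) with Pou5f1 RNAi and -0.15 ± 0.10 (adjusted p = 0.4) with Nanog RNAi. Igtp did differ between the knockdowns, by 0.43 ± 0.11 (adjusted p = 0.0036). Gbp3, a further guanylate-binding protein, and Iigp1, an immunity-related GTPase, were low in all 3 groups, with array levels of 3.15 to 3.46 and 3.35 to 4.03, and were not called.

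Of 9 antiviral effectors measured on the RNAi arrays, 4 rose and 1 fell with Pou5f1 RNAi, against 20.6% and 19.5% of all genes. Nanog RNAi called none of them (limma, with 2 higher and 0 lower at an unadjusted p under 0.05), against 12.1% and 8.77% of all genes. Ifi35, an interferon-induced protein with a leucine zipper, read 7.45, 7.29, 7.57 and 7.69 in Pou5f1 RNAi cells, 6.55, 6.44, 6.64, 6.53 and 6.78 in Nanog RNAi cells, and 6.47, 6.20, 6.20, 6.29 and 6.62 in vector cells. It rose by 1.15 ± 0.10 (adjusted p = 1.2e-08) with Pou5f1 RNAi, and the other 2 Ifi35 probe sets were also higher, at 6.22 and 5.90 with Pou5f1 RNAi against 5.29 and 5.40 with vector. Rsad2, which encodes viperin, an enzyme that makes a chain-terminating nucleotide, read 5.50, 5.42, 5.54 and 5.69 in Pou5f1 RNAi cells, 4.82, 5.19, 5.16, 4.98 and 4.79 in Nanog RNAi cells, and 4.95, 4.94, 4.75, 4.89 and 4.81 in vector cells. All Pou5f1 RNAi arrays stood above all others, and the rise was 0.67 ± 0.09 (adjusted p = 5.6e-06). Oasl2, an oligoadenylate synthetase-like protein, read 3.81, 3.79, 4.04 and 3.67 in Pou5f1 RNAi cells, 3.04, 3.25, 3.13, 3.43 and 3.20 in Nanog RNAi cells, and 3.54, 3.05, 3.32, 3.36 and 3.27 in vector cells. It rose by 0.52 ± 0.10 (adjusted p = 0.00029) from a low level. Ifih1, the double-stranded RNA sensor MDA5, rose by 0.48 ± 0.10 (adjusted p = 0.00042), and Ifit2, of the family that binds foreign RNA, fell by 0.38 ± 0.11 (adjusted p = 0.011). Both were low, with vector levels of 3.24 ± 0.10 and 4.01 ± 0.20 (SD, n = 5 each). Ifit1 and Ifit3, of the Ifit2 family, Usp18 and Bst2, which tethers budding virus particles to the cell, were not called in either knockdown. Ifit1, among the most inducible interferon targets in other cells, read 3.11 to 3.57 over all 14 arrays, and Usp18, which removes Isg15 from proteins, read 3.45 to 4.08.

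The transcription factors of the pathway moved little. Irf1 levels were 7.73, 7.47, 7.49 and 7.62 in Pou5f1 RNAi cells, 8.07, 8.01, 8.16, 8.17 and 8.11 in Nanog RNAi cells, and 8.12, 8.13, 8.17, 8.11 and 7.996 in vector cells. The Pou5f1 RNAi arrays were the low ones, and Irf1 fell by 0.53 ± 0.07 (adjusted p = 8.1e-06), against 0.00 ± 0.07 with Nanog RNAi (adjusted p = 0.98). Irf2, a relative of Irf1 that competes for the same sites, rose by 0.29 ± 0.08 (adjusted p = 0.0068) with Pou5f1 RNAi from a level of 2.87 ± 0.11 in vector cells (SD, n = 5). Stat2 changed by -0.39 ± 0.13 (adjusted p = 0.046) with Nanog RNAi, close to the threshold: the call was lost in 9 of 16 alternatives, with estimates of -0.41 to -0.30, among them the removal of vector replicate 2, 3 or 5 or of Nanog RNAi replicate 1, 3, 4 or 5. A second Stat2 probe set read 4.70 ± 0.17 with Nanog RNAi and 4.78 ± 0.13 with vector (SD, n = 5 each). Irf7, which drives interferon genes, and Irf9, the DNA-binding partner of STAT2, were not called in either knockdown, and Irf9 gave -0.28 ± 0.10 (adjusted p = 0.071) with Nanog RNAi.

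**Figure D1:**
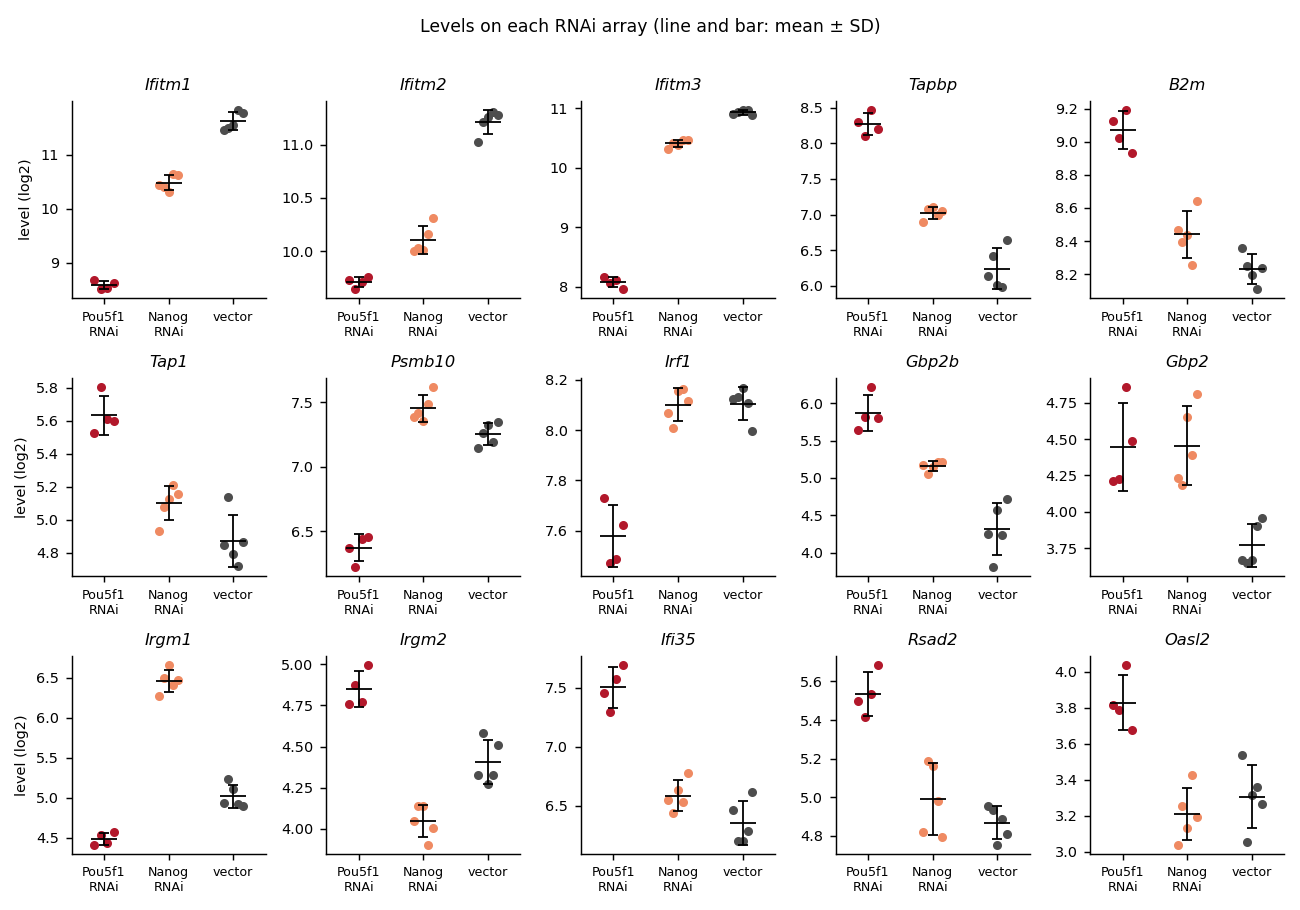
Levels (log2, vertical axis) of 15 members on each RNAi array, with Pou5f1 RNAi, Nanog RNAi and vector cells from left to right. Points are arrays, and lines with bars are means ± SD (n = 4, 5 and 5). The Ifitm genes step down in both knockdowns, with Ifitm1 means of 8.59, 10.48 and 11.62, Tapbp steps up, and Irgm1 is highest with Nanog RNAi.

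Chemical differentiation gave a different picture, and DMSO was the treatment with the most members higher. With DMSO 14 of 28 members rose and 3 fell as the mean over the 3 days, against 10.7% and 8.60% of all genes, and the median member stood at 0.44 against 0.02 for all genes (log2). With HMBA 6 rose and 4 fell (background 15.5% and 12.8%, medians 0.15 and 0.00). With RA 3 rose and 4 fell (background 17.0% and 10.5%, medians 0.03 and 0.01). The 2 arrays of a treatment and day differ in dye, and arrays of the same orientation deviated together, so the fit with dye orientation as a term is given as well. With that term 21 members were called for DMSO (17 higher, 4 lower, of 45.0% of all genes called either way), 16 for HMBA (9 and 7, of 52.9%) and 16 for RA (10 and 6, of 52.5%). The 3 falls with DMSO were the Ifitm genes, which also fell with HMBA and RA. Markers moved as well: 9 or 10 of 10 ES cell markers fell with each treatment, and trophectoderm markers called higher numbered 1 of 9 with DMSO, 5 with HMBA and 6 with RA. Array means of 6 fibroblast markers were -0.33 to 0.47 with DMSO, 0.20 to 0.99 with HMBA and 0.63 to 2.04 with RA, and those of 6 primitive endoderm markers 0.07 to 0.55, 0.10 to 0.50 and 0.13 to 1.43. Of 3 leukocyte markers 2 fell with DMSO and 1 each with HMBA and RA. The part of these markers in the results was not tested.

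Irf1 had the smallest adjusted p of any member in the comparisons of RA and of HMBA with DMSO. With DMSO its log ratios were 0.69 and 0.82 on day 2, 1.19 and 1.31 on day 4, and 1.34 and 1.25 on day 6. HMBA gave Irf1 0.61 and 0.32 on day 2, 0.25 and 0.13 on day 4, and -1.18 and -1.53 on day 6. RA gave Irf1 0.48 and 0.39 on day 2, -0.65 and -0.90 on day 4, and -0.89 and -1.32 on day 6. It was above untreated cells on all 6 DMSO arrays, and on day 2 of every treatment, and below on day 6 of HMBA and RA. The mean over days was 1.10 ± 0.09 (adjusted p = 4.1e-06) with DMSO, -0.23 ± 0.09 (adjusted p = 0.079) with HMBA and -0.48 ± 0.09 (adjusted p = 0.0015) with RA. The HMBA value was called with the dye term (adjusted p = 0.012). With the 2 arrays of each day averaged and days as replicates, the Irf1 calls with DMSO and RA were lost (adjusted p = 0.052 and 0.33). Irf2 changed by 0.38 ± 0.09 (adjusted p = 0.016) with DMSO and 0.39 ± 0.09 (adjusted p = 0.0088) with HMBA, both called. Its log ratios were -0.03 and 0.14 on day 2, 0.63 and 0.61 on day 4, and 0.53 and 0.37 on day 6 with DMSO. HMBA gave Irf2 0.20 and 0.11 on day 2, 0.69 and 0.49 on day 4, and 0.46 and 0.41 on day 6. RA gave Irf2 -0.26 and 0.21 on day 2, 0.48 and 0.02 on day 4, and 0.53 on day 6, a mean of 0.25 ± 0.11 (adjusted p = 0.12) that was called with the dye term (adjusted p = 0.034). The 3 treatments thus overlapped for Irf2. Its DMSO call was lost without day 2 replicate 2 or day 6 replicate 1 (0.35, adjusted p = 0.076 in both), and with averaged arrays the Irf2 calls were lost for DMSO (0.083) and HMBA (0.058). Irf7, Irf9 and Stat2 were not called with any treatment in either fit, with means of -0.11 to 0.14.

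Of 6 tested GTPases, 5 rose with DMSO, against 10.7% of all genes, and Gbp3 was the exception. Gbp2b had the highest log ratios of any member, 2.09 and 1.27 on day 2, 3.19 and 1.83 on day 4, and 3.54 and 2.54 on day 6 with DMSO. HMBA gave Gbp2b 2.77 and 2.10 on day 2, 3.41 and 2.67 on day 4, and 0.55 and -0.54 on day 6. RA gave Gbp2b 2.20 and 1.05 on day 2, 0.78 and 0.08 on day 4, and 0.53 and -0.62 on day 6. It stayed high with DMSO on day 6, when HMBA and RA arrays lay on both sides of 0. Mean changes were 2.41 ± 0.25 (adjusted p = 3e-05) with DMSO, 1.83 ± 0.25 (adjusted p = 0.00017) with HMBA and 0.67 ± 0.25 (adjusted p = 0.075) with RA, the last called with the dye term (adjusted p = 1e-06). Gbp2 followed the same course, with 1.55 and 0.63 on day 2, 1.87 and 1.42 on day 4, and 1.73 and 1.58 on day 6 for DMSO. HMBA gave Gbp2 1.23 and 1.54 on day 2, 2.56 and 1.61 on day 4, and 0.08 and -0.28 on day 6. RA gave Gbp2 1.23 and 0.35 on day 2, 0.02 and 0.25 on day 4, and 0.34 and 0.50 on day 6. Its means were 1.46 ± 0.16 (adjusted p = 3.8e-05) with DMSO, 1.12 ± 0.16 (adjusted p = 0.00019) with HMBA and 0.45 ± 0.16 (adjusted p = 0.057) with RA (adjusted p = 0.0036 with the dye term).

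As the mean over days and without the dye term, the immunity-related GTPases were called with DMSO and not with HMBA or RA. Irgm1 log ratios with DMSO were 1.16 and 0.80 on day 2, 1.12 on day 4, and 1.73 and 1.43 on day 6. HMBA gave Irgm1 1.13 and 0.83 on day 2, 0.62 and 0.03 on day 4, and -0.73 and -0.91 on day 6. RA gave Irgm1 1.73 and 1.25 on day 2, -0.28 and -0.45 on day 4, and -0.58 and -0.83 on day 6. All 3 treatments started high on day 2, after which Irgm1 stayed high with DMSO and passed below untreated cells by day 6 with HMBA and RA. Irgm2 with DMSO was 0.94 and 0.78 on day 2, 1.43 on day 4, and 2.15 and 1.67 on day 6. HMBA gave Irgm2 0.42 and -0.09 on day 2, 0.92 and 0.44 on day 4, and 0.16 and -0.35 on day 6. RA gave Irgm2 0.96 and -0.03 on day 2, 0.10 and 0.21 on day 4, and 0.61 and 0.29 on day 6. Igtp with DMSO was 0.21 and 1.07 on day 2, 0.77 on day 4, and 2.07 and 2.38 on day 6, with its highest values on day 6. HMBA gave Igtp -0.39 and 0.65 on day 2, 0.53 and 0.95 on day 4, and -0.74 and 0.39 on day 6. RA gave Igtp 0.86 and 0.82 on day 2, -0.54 on day 4, and 0.06 and 1.12 on day 6. Mean changes with DMSO were 1.23 ± 0.13 (adjusted p = 4.7e-05) for Irgm1, 1.40 ± 0.16 (adjusted p = 0.00012) for Irgm2 and 1.21 ± 0.24 (adjusted p = 0.0048) for Igtp. On DMSO day 4 these 3 genes had 1 array each, and the Irgm1 call was lost when the arrays of each day were averaged (adjusted p = 0.059). Their means with HMBA were 0.16 ± 0.11, 0.25 ± 0.14 and 0.23 ± 0.20, and with RA 0.14 ± 0.11, 0.36 ± 0.14 and 0.30 ± 0.24. The dye term called Irgm2 with HMBA and Irgm2 and Igtp with RA. Gbp3 was not called with any treatment in either fit.

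Of the immunoproteasome genes, Psmb8 and Psme1 rose with DMSO and Psmb9 and Psmb10 were not called. Psmb8 with DMSO was 0.51 and 0.57 on day 2, 0.83 and 0.98 on day 4, and 1.92 and 1.74 on day 6. HMBA gave Psmb8 0.19 and 0.27 on day 2, 0.34 and 0.23 on day 4, and -0.51 and -0.65 on day 6. RA gave Psmb8 1.05 and 0.04 on day 2, -0.41 and -0.35 on day 4, and -0.08 and -0.21 on day 6. Only DMSO arrays kept above 0 on all days, and Psmb8 rose by 1.09 ± 0.11 (adjusted p = 2.2e-05), against -0.02 ± 0.11 with HMBA and 0.01 ± 0.11 with RA. A second Psmb8 probe read 1.72 and 1.08 on DMSO day 6, against -0.01 and -0.74 with HMBA and 0.16 and -0.85 with RA. Psme1 with DMSO was 0.87 and 0.43 on day 2, 1.21 and 1.12 on day 4, and 1.55 and 1.25 on day 6. HMBA gave Psme1 0.64 and 0.39 on day 2, 0.75 and 0.56 on day 4, and 0.04 and -0.38 on day 6. RA gave Psme1 0.58 and 0.11 on day 2, 0.11 and 0.20 on day 4, and 0.63 and 0.59 on day 6. Psme1 rose with all treatments, by 1.07 ± 0.10 (adjusted p = 1.1e-05) with DMSO, 0.33 ± 0.10 (adjusted p = 0.026) with HMBA and 0.37 ± 0.10 (adjusted p = 0.016) with RA. The smaller calls were lost with averaged arrays (adjusted p = 0.20 for HMBA and 0.15 for RA), and that for RA also under scale normalisation (0.32, adjusted p = 0.084). Without 1 of 4 HMBA arrays (day 2 replicate 1, day 4 replicate 1 or 2, day 6 replicate 1) the HMBA value was 0.26 to 0.36, and without 1 of 3 RA arrays (day 2 replicate 1, day 4 replicate 2, day 6 replicate 1) the RA value was 0.29 to 0.36, each no longer called. Psmb10 gave 0.45 ± 0.18 (adjusted p = 0.12) with DMSO, -0.34 ± 0.18 (adjusted p = 0.22) with HMBA and -0.38 ± 0.18 (adjusted p = 0.15) with RA, and with the dye term it was higher with DMSO and lower with HMBA and RA (adjusted p at most 0.00038). Psmb9 gave -0.18 ± 0.17 (adjusted p = 0.57) with DMSO and -0.37 ± 0.20 (adjusted p = 0.22) with HMBA, and its HMBA value was called with the dye term (adjusted p = 0.00049).

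Tapbp and Tap2, which encode tapasin and a transporter subunit, rose with all 3 treatments. Tap2 with DMSO was 0.49 and 0.37 on day 2, 1.12 on day 4, and 1.56 and 1.69 on day 6. HMBA gave Tap2 0.39 and 0.82 on day 2, 0.71 and 0.78 on day 4, and 0.34 and 0.38 on day 6. RA gave Tap2 0.59 and 0.89 on day 2, 0.37 and 0.63 on day 4, and 0.67 and 0.84 on day 6. Every Tap2 array was above 0, with means of 1.06 ± 0.10 (adjusted p = 2.7e-05), 0.57 ± 0.09 (adjusted p = 0.00056) and 0.66 ± 0.09 (adjusted p = 0.00019) for DMSO, HMBA and RA. Tapbp with DMSO was 0.33 and 0.93 on day 2, 0.73 and 1.52 on day 4, and 0.85 and 1.45 on day 6. HMBA gave Tapbp 0.51 and 0.995 on day 2, 0.72 and 1.72 on day 4, and 0.55 and 1.15 on day 6. RA gave Tapbp 0.13 and 0.78 on day 2, 0.34 and 0.52 on day 4, and 0.64 and 0.86 on day 6. Its arrays were above 0 throughout as well, with means of 0.97 ± 0.17 (adjusted p = 0.0013), 0.94 ± 0.17 (adjusted p = 0.001) and 0.54 ± 0.17 (adjusted p = 0.03). The RA call was lost without day 2 replicate 2, day 4 replicate 1 or 2, or day 6 replicate 1 or 2, with values of 0.44 to 0.58, and was kept with the dye term (adjusted p = 1.5e-05). Tap1 with DMSO was 0.22 and 0.42 on day 2, 0.60 on day 4, and 0.70 and 1.03 on day 6. HMBA gave Tap1 -0.02 and -0.03 on day 2, 0.39 and 0.66 on day 4, and 0.01 and 0.36 on day 6. RA gave Tap1 -0.04 and 0.17 on day 2, 0.48 on day 4, and 0.06 and 0.47 on day 6. Tap1 rose with DMSO by 0.59 ± 0.11 (adjusted p = 0.0045), and its values of 0.23 ± 0.10 with HMBA and 0.27 ± 0.11 with RA were called only with the dye term (adjusted p = 0.013 and 0.031). B2m differed in sign between dye orientations on most days and was not called, at 0.31 ± 0.23 (adjusted p = 0.45) with DMSO. With the dye term the B2m value with DMSO was called (adjusted p = 0.012).

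Of the antiviral effectors, Oasl2 and Ifi35 rose with DMSO, and Ifit3 fell with HMBA. Oasl2 with DMSO was 0.15 and 0.38 on day 2, 0.67 and 0.68 on day 4, and 1.12 and 1.22 on day 6. HMBA gave Oasl2 0.47 and 0.07 on day 2, 0.31 and 0.33 on day 4, and -0.09 and 0.10 on day 6. RA gave Oasl2 0.03 and 0.70 on day 2, -0.12 and -0.12 on day 4, and -0.52 and -0.06 on day 6. The DMSO mean was 0.70 ± 0.10 (adjusted p = 0.00042), against 0.20 ± 0.10 with HMBA and -0.01 ± 0.10 with RA. Ifi35 with DMSO was 0.03 and 0.52 on day 2, 0.36 and 0.67 on day 4, and 0.78 and 1.30 on day 6. HMBA gave Ifi35 -0.32 and 0.30 on day 2, 0.10 and 0.61 on day 4, and 0.03 and 0.67 on day 6. RA gave Ifi35 0.20 and 0.22 on day 2, -0.28 and 0.36 on day 4, and 0.56 and 0.71 on day 6. Ifi35 rose with DMSO by 0.61 ± 0.14 (adjusted p = 0.0076), a call lost without day 6 replicate 2 (0.52, adjusted p = 0.053). Ifit3 with HMBA was -0.19 and -0.68 on day 2, -0.49 and -1.12 on day 4, and -0.41 and -1.22 on day 6. DMSO gave Ifit3 0.26 and -0.51 on day 2, -0.16 and -0.81 on day 4, and 0.03 and -0.56 on day 6. RA gave Ifit3 0.12 and -0.91 on day 2, -0.27 and -1.04 on day 4, and -0.08 and -1.13 on day 6. Its orientations differed by more than its treatments, and the HMBA mean of -0.69 ± 0.20 (adjusted p = 0.026) was no longer called without day 2, day 4 or day 6 replicate 2 (-0.60 to -0.55). With the dye term Ifit3 was also lower with DMSO and RA (adjusted p = 0.0031 and 4.4e-06). Ifit2, Rsad2 and Ifih1 were not called, with means of -0.31 to 0.42, except that Ifih1 was higher with DMSO with the dye term (adjusted p = 0.001). Isg15, a ubiquitin-like modifier, had too few values to test. With DMSO it read 0.63 on day 2, 0.71 on day 4, and 2.63 and 2.22 on day 6. HMBA gave Isg15 1.13 on day 4, and 0.94 and 0.70 on day 6, and RA gave 1.83 and 0.66 on day 2. The 5 Usp18 values were 0.19, 0.19 and 1.64 on DMSO days 2, 4 and 6, 0.37 on HMBA day 4 and 0.37 on RA day 2.

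The Ifitm genes fell with every treatment, as they had in both knockdowns. Ifitm1 with RA was -1.14 and -1.49 on day 2, -2.14 and -1.71 on day 4, and -1.79 and -1.47 on day 6. DMSO gave Ifitm1 -2.47 and -2.07 on day 2, -2.94 and -2.53 on day 4, and -1.74 and -1.73 on day 6. HMBA gave Ifitm1 -1.90 and -1.40 on day 2, -1.86 and -1.37 on day 4, and -2.52 and -1.87 on day 6. All 18 arrays were below 0, the nearest to it at -1.14. Ifitm3 with RA was -1.04 and -0.78 on day 2, -1.13 and -0.68 on day 4, and -1.16 and -1.002 on day 6. DMSO gave Ifitm3 -1.39 and -1.35 on day 2, -2.001 and -1.12 on day 4, and -1.03 and -1.18 on day 6. HMBA gave Ifitm3 -1.77 and -1.44 on day 2, -1.51 and -1.46 on day 4, and -2.23 and -1.67 on day 6. Ifitm2 was also below 0 throughout, with -0.99 and -0.95 on day 2, -0.67 and -0.47 on day 4, and -0.50 and -0.28 on day 6 for RA. DMSO gave Ifitm2 -1.21 and -0.96 on day 2, -1.33 and -0.63 on day 4, and -0.80 and -0.77 on day 6. HMBA gave Ifitm2 -1.33 and -1.03 on day 2, -1.08 and -0.74 on day 4, and -1.34 and -0.79 on day 6. Mean changes of Ifitm1 were -1.62 ± 0.12 (adjusted p = 1.4e-06) with RA, -2.25 ± 0.12 (adjusted p = 1.5e-07) with DMSO and -1.82 ± 0.12 (adjusted p = 5.9e-07) with HMBA. Those of Ifitm3 were -0.96 ± 0.12, -1.34 ± 0.12 and -1.68 ± 0.12, and those of Ifitm2 -0.65 ± 0.11, -0.95 ± 0.11 and -1.05 ± 0.11 (adjusted p at most 0.00089). Each of these 9 calls kept its sign and its side of the threshold under the alternative scalings.

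**Figure D2:**
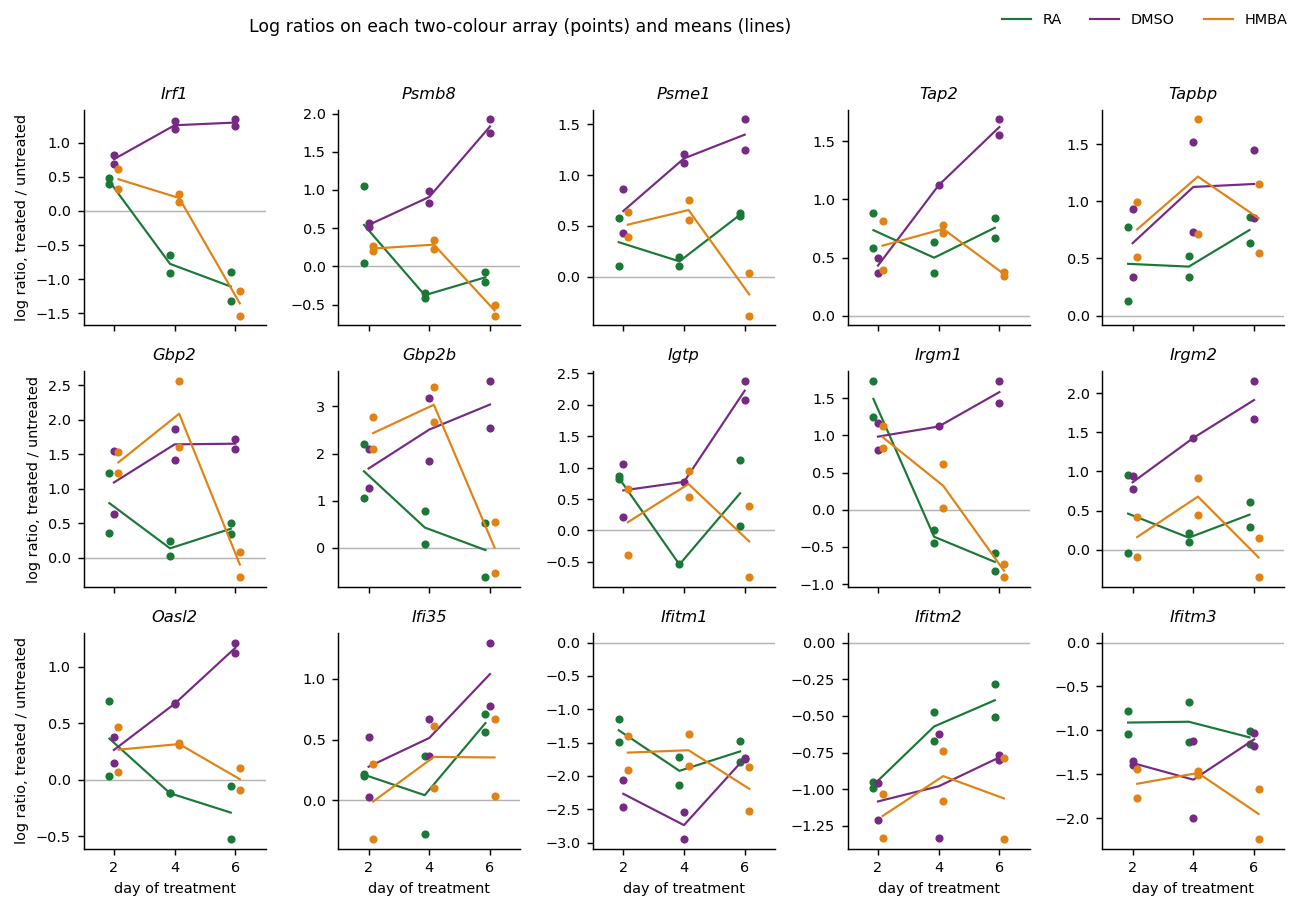
Log ratio of treated to untreated cells (vertical axis, taken as log2) against day of treatment for 15 members, with RA in green, DMSO in purple and HMBA in orange. Points are arrays (2 per treatment and day, 1 where a value is missing) and lines join their means. On day 6 the DMSO points of Irf1, Psmb8, Irgm1 and Irgm2 lie above all HMBA and RA points, while Ifitm points lie below 0 in all treatments.

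The treatments were then set against each other, in 3 pairs over the 3 days. RA and DMSO differed in 8 of 28 members, all lower with RA, against 6.48% of all genes. These were Irf1 (-1.59 ± 0.13), Gbp2b (-1.74 ± 0.36), Irgm1 (-1.09 ± 0.17), Psmb8 (-1.09 ± 0.16), Irgm2 (-1.04 ± 0.22), Gbp2 (-1.01 ± 0.22), Oasl2 (-0.72 ± 0.15) and Psme1 (-0.70 ± 0.14), with adjusted p of 8e-06 to 0.016. With the dye term 19 members differed, 3 higher and 16 lower with RA, against 23.6% of genes. HMBA and DMSO differed in 5 members, all lower with HMBA, against 1.75% of genes: Irf1 (-1.34 ± 0.13, adjusted p = 0.00015), Irgm2 (-1.15 ± 0.22, adjusted p = 0.025), Psmb8 (-1.11 ± 0.16, adjusted p = 0.0032), Irgm1 (-1.07 ± 0.17, adjusted p = 0.0091) and Psme1 (-0.74 ± 0.14, adjusted p = 0.021). The dye term gave 14 (1 higher, 13 lower), against 11.4%. RA and HMBA differed in 1 member, Ifitm3, which was less reduced with RA (0.72 ± 0.17, adjusted p = 0.04), against 3.14% of genes, and in 6 with the dye term, against 16.9%. The Ifitm3 call was lost in 12 of 18 alternatives, at 0.62 to 0.88. The test spreads come from arrays of 1 day. When the 2 arrays of each day were averaged and days served as replicates, all 8 RA against DMSO calls were lost, with adjusted p of 0.065 for Irgm2 to 0.33 for Irgm1, as were the 5 HMBA against DMSO calls, at 0.32 for Irgm2 to 0.68 for Irgm1. For Irgm2 and Psme1 the HMBA against DMSO calls were also lost without single arrays, at -1.18 to -1.065 for Irgm2 and -0.72 to -0.66 for Psme1. These arrays were DMSO day 2 replicate 1, DMSO day 6 replicate 1 and replicate 2 of each HMBA day for both genes, with DMSO day 2 replicate 2 for Irgm2 and DMSO day 4 replicate 1 for Psme1.

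**Figure D3:**
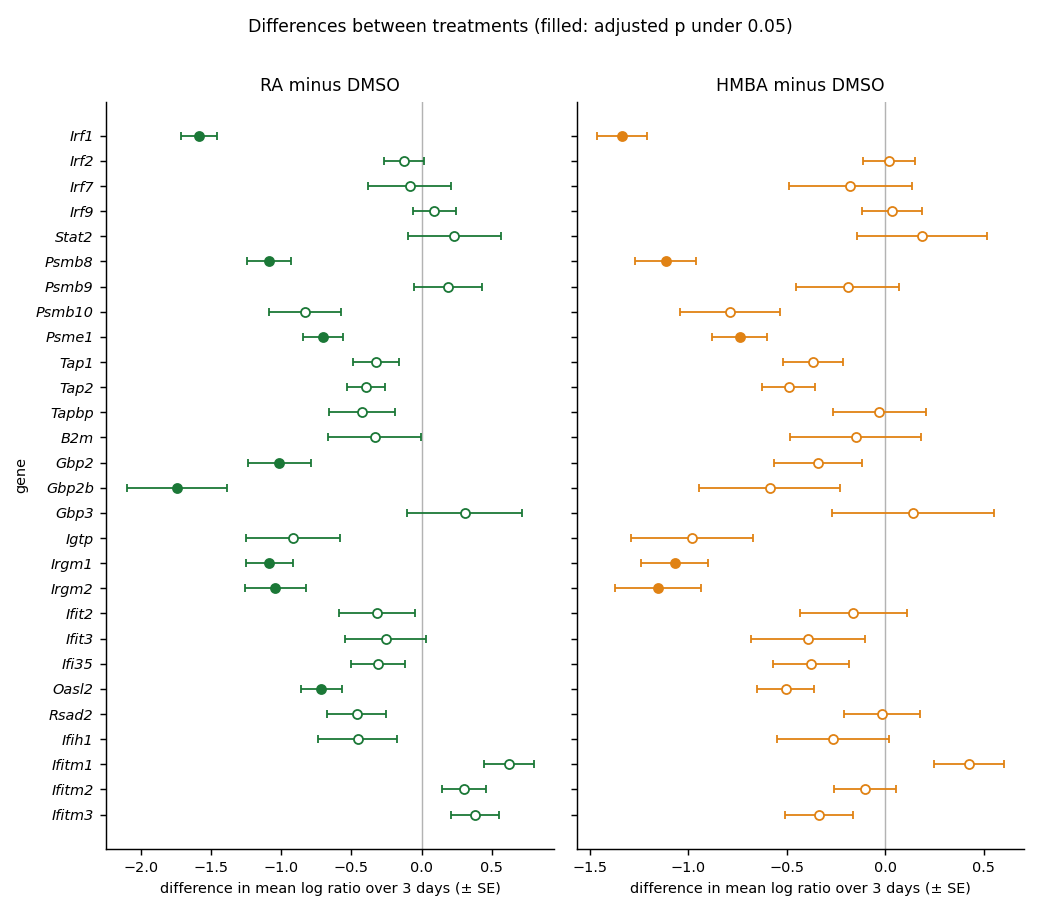
Difference in mean log ratio over 3 days (horizontal axis) for each of 28 tested members, RA minus DMSO on the left and HMBA minus DMSO on the right. Points are estimates, bars are ± standard error, and filled points have an adjusted p under 0.05. All 8 filled points on the left and all 5 on the right lie below 0, with Irf1 at -1.59 and -1.34.

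Over time the members drifted apart between treatments. The median member changed by 0.54 between day 2 and day 6 with DMSO, by -0.25 with HMBA and by -0.12 with RA, while the median of all genes changed by 0.01, -0.02 and 0.00 (log2). Psmb8 (1.29 ± 0.27, adjusted p = 0.045) and Tap2 (1.19 ± 0.22, adjusted p = 0.026) rose between those days with DMSO, against 1.13% of all genes called, and 10 members rose with the dye term, against 10.8%. Leaving out any 1 of the 4 arrays of those days removed both calls, at 1.13 to 1.38. With HMBA, Irf1 (-1.82 ± 0.22, adjusted p = 0.00092) and Irgm1 (-1.80 ± 0.27, adjusted p = 0.0065) fell, against 1.75% of genes, and 2 members rose and 7 fell with the dye term, against 11.3%. The same genes fell with RA, Irf1 by 1.54 ± 0.22 (adjusted p = 0.0046) and Irgm1 by 2.19 ± 0.27 (adjusted p = 0.0024), against 1.34% of genes, and the dye term gave 1 rise and 4 falls, against 12.2%. The Irf1 call with RA was lost without day 6 replicate 2 (-1.33), and the Irgm1 call with HMBA without day 2 replicate 1 (-1.65) or day 6 replicate 2 (-1.71). Changes with HMBA and RA here are both read against untreated RNA. A difference between days of 1 treatment cancels it only if the same untreated RNA served both days.

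Day by day, DMSO calls built up, both among the members and over all genes. HMBA calls among the members were most numerous on day 4, while over all genes they were near level on days 4 and 6. With DMSO 5 members were called on day 2, 14 on day 4 and 16 on day 6, against 2.31%, 7.69% and 11.6% of all genes. Of these, 2, 11 and 13 were higher and the other 3 on each day were the Ifitm genes. HMBA called 7, 9 and 5 (4, 6 and 0 higher), against 5.68%, 14.6% and 14.3%. At an unadjusted p under 0.05, limma gave 3 members higher on HMBA day 6. RA called 6, 3 and 6 (3, 0 and 2 higher), against 7.12%, 10.4% and 16.0%, with 1 member higher on day 4 at an unadjusted p under 0.05. With the dye term DMSO called 15, 18 and 19 (11.8%, 28.5% and 34.3% of genes), HMBA 13, 16 and 15 (23.9%, 37.4% and 37.0%) and RA 14, 11 and 16 (24.7%, 32.2% and 42.8%).

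Comparisons of DMSO with the other treatments on day 6, added after the values had been seen, found 7 members higher than with HMBA, against 0.964% of all genes called either way. These were Gbp2b (3.04 ± 0.62), Irf1 (2.65 ± 0.22), Psmb8 (2.41 ± 0.27), Irgm1 (2.40 ± 0.27), Irgm2 (2.01 ± 0.35), Psme1 (1.57 ± 0.24) and Tap2 (1.27 ± 0.22). Against RA 5 members were higher (1.99% of genes called): Gbp2b (3.09 ± 0.62), Irf1 (2.40 ± 0.22), Irgm1 (2.28 ± 0.27), Psmb8 (1.98 ± 0.27) and Oasl2 (1.46 ± 0.25). With the dye term 14 and 13 members were higher (6.83% and 11.7%). The change between day 2 and day 6 differed itself for Irf1 and Irgm1. It was larger with DMSO than with HMBA by 2.36 ± 0.31 (adjusted p = 0.0088) for Irf1 and 2.39 ± 0.38 (adjusted p = 0.034) for Irgm1, and larger than with RA by 2.08 ± 0.31 (adjusted p = 0.027) and 2.79 ± 0.38 (adjusted p = 0.025). Of all genes 0.199% and 0.125% were called for these differences, and with the dye term 11 and 7 members were (2.58% and 2.33% of genes).

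Promoters of the members were read from RefSeq windows on GRCm38.p6, which were found for 32 of the 35 genes. In the 250 bases before the annotated start, GAAANNGAAA, a core of the interferon-stimulated response element, was found on either strand in 15 of 32 members and in 3.46% of 27025 genes. TTCNNNGAA, a core of the gamma-activated site, was found in 7 of 32 members and 8.13% of genes. Either was found in 18 members and 11.1% of genes. The sequences below are the last 150 bases before the start, given 5′ to 3′ on the gene's strand, for the genes that rose with DMSO and had a match in that stretch. Capitals mark the matches. A second RefSeq window for Irf1, further downstream, holds neither form.

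Irf1, chr11:53769864-53770013, plus strand: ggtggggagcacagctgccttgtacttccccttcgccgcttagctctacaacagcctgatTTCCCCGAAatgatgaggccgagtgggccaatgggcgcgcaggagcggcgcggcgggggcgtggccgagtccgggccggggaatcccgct
Psmb8, chr17:34198045-34198194, plus strand: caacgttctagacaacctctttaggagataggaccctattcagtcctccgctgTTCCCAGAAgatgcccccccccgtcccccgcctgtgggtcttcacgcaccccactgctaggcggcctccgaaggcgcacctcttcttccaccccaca
Gbp2, chr3:142620513-142620662, plus strand: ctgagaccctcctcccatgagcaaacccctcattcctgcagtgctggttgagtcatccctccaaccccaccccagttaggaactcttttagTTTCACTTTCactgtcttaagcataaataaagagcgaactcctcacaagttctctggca
Gbp2b, chr3:142594697-142594846, plus strand: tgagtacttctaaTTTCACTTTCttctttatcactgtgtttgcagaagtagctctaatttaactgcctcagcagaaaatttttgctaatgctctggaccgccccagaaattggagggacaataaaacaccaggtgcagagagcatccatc
Igtp, chr11:58199406-58199555, plus strand: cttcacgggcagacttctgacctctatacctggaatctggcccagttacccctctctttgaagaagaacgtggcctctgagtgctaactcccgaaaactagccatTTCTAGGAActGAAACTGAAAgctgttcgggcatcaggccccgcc
Irgm1, chr11:48871421-48871570, minus strand: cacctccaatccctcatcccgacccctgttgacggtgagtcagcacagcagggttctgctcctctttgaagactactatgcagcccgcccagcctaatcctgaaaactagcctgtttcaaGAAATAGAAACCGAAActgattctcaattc
Irgm2, chr11:58214827-58214976, plus strand: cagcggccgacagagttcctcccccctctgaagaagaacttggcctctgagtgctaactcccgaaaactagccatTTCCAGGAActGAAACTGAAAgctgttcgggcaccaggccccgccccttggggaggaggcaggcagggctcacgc

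Irf1 and Psmb8 carry the TTCNNNGAA form, with first bases at -90 and -97, counted from the start. Gbp2 and Gbp2b carry the GAAANNGAAA form on the opposite strand, from -59 and -137, with the same 10 letters. Irgm1 has 2 overlapping GAAANNGAAA matches, from -30 and -24. Igtp and Irgm2 hold both forms side by side, the GAAANNGAAA match following the TTCNNNGAA match by 2 bases in each, and their stretches share an unbroken run of 38 bases, while the next longest run among the 45 pairs of printed stretches is 11 bases. Irf2, which also rose with DMSO, has both forms further from its start, from -241 and -224. Of the other members that rose with DMSO, Psme1, Tap1, Tapbp, Oasl2 and Ifi35 had no match in 250 bases, and Tap2 had no window.

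The Ifitm promoters are shown as well, since these genes fell in both knockdowns and with each treatment. They are printed whether or not they hold a match, while the genes above were printed only if they did. The printed stretches therefore cannot be used to compare matches between rising and falling genes.

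Ifitm1, chr7:140967926-140968075, plus strand: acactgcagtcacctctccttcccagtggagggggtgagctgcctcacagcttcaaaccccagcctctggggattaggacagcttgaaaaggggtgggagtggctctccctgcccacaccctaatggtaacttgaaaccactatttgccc
Ifitm2, chr7:140955962-140956111, minus strand: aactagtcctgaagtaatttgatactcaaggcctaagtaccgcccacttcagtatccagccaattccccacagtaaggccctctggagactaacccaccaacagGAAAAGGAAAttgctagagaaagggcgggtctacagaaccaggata
Ifitm3, chr7:141010745-141010894, minus strand: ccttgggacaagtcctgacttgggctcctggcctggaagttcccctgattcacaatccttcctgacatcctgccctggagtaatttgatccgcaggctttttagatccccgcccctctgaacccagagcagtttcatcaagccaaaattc

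Ifitm2 has 1 GAAANNGAAA match, from -46, and Ifitm1 and Ifitm3 have neither form in 250 bases. Matches were also found in members not called higher with DMSO without the dye term, among them Ifit2, Ifit3, Gbp3, Stat2, Rsad2 and B2m. Ifit1, Isg15 and Bst2, which could not be tested there, held matches too. A match is a string of letters and not a measured binding site.

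Both experiments can be read side by side, although the knockdowns share the vector arrays and the treatments may share the untreated RNA. Tapbp differed by 2.03 and 0.79 with Pou5f1 and Nanog RNAi, and by 0.54, 0.97 and 0.94 with RA, DMSO and HMBA, and Ifitm1 by -3.03 and -1.14, and by -1.62, -2.25 and -1.82. Gbp2 and Gbp2b rose with both knockdowns, DMSO and HMBA. Irf1 was lower with Pou5f1 RNAi and RA and higher with DMSO. Psmb8, Psme1 and Tap2, which rose with DMSO, were not called in either knockdown, and their RNAi levels in vector cells averaged 4.57 ± 0.18, 8.35 ± 0.14 and 4.83 ± 0.16 (SD, n = 5). Against vector and as the mean over days, without the dye term, the members not called where tested were Irf7, Irf9, Psmb9, Gbp3, Iigp1, Ifit1, Usp18 and Bst2.

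**Figure D4:**
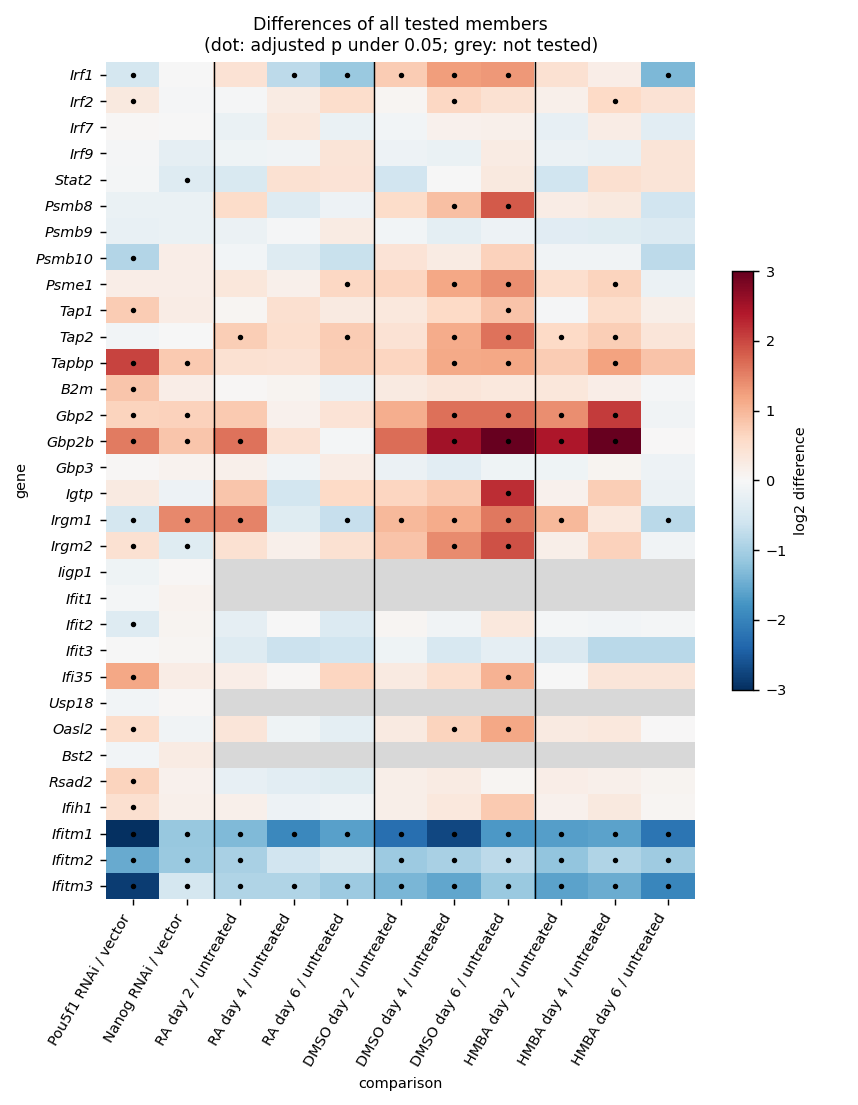
Log2 difference (colour) of each of 32 tested members (rows) in Pou5f1 RNAi and Nanog RNAi cells against vector, and with RA, DMSO and HMBA on days 2, 4 and 6 against untreated cells (columns). Dots mark an adjusted p under 0.05, grey marks members not tested, and colour saturates at 3. The Ifitm rows are blue throughout, and the DMSO columns hold 5, 14 and 16 dots.

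Other genes of the pathway, on a list of receptors, sensors, targets and presentation genes, moved in both directions. That list, like the members, was chosen with earlier results of these data known. With Pou5f1 RNAi 17 of 88 rose and 14 fell, against 20.6% and 19.5% of all genes, and with Nanog RNAi 14 rose and 5 fell, against 12.1% and 8.77%. Of 13 other antigen presentation genes, 4 rose and 2 fell with Pou5f1 RNAi, and 2 rose and 1 fell with Nanog RNAi. Of 15 receptor and signalling genes, 6 rose and 2 fell with Pou5f1 RNAi, and 4 rose with Nanog RNAi. With Pou5f1 RNAi the smallest p values were those of the class I heavy chain genes H2-D1 (2.35 ± 0.10, adjusted p = 1.7e-13) and H2-K1 (1.97 ± 0.10, adjusted p = 9.8e-13), the receptor kinase Jak1 (1.84 ± 0.10, adjusted p = 8.3e-12) and the nuclear body protein Pml (-1.53 ± 0.10, adjusted p = 6.3e-11). Probe sets for class I genes can take up signal from one another. H2-D1 levels were 9.69, 9.52, 9.94 and 9.76 in Pou5f1 RNAi cells, 7.26, 7.24, 7.07, 7.13 and 7.27 in Nanog RNAi cells, and 7.10, 7.48, 7.32, 7.31 and 7.65 in vector cells. The Pou5f1 RNAi arrays stood above all others, and H2-D1 gave -0.18 ± 0.10 (adjusted p = 0.26) with Nanog RNAi. Between the knockdowns, H2-D1 (2.54 ± 0.10), H2-K1 (2.15 ± 0.10), Pml (-1.80 ± 0.10) and the ADP-ribosyltransferase Parp12 (-1.28 ± 0.08) had the smallest p. In that comparison 16 of the 88 genes were higher and 17 lower in Pou5f1 RNAi cells, against 18.8% and 18.6% of all genes. With Nanog RNAi the leading genes were the nuclear body protein Sp110 (1.27 ± 0.10, adjusted p = 1.8e-08), the receptor kinase Tyk2 (0.50 ± 0.07, adjusted p = 2.3e-05), the transcriptional cofactor Trim24 (0.48 ± 0.07, adjusted p = 4.4e-05) and Oas1a (-0.56 ± 0.08, adjusted p = 7.3e-05), an oligoadenylate synthetase. The 5 interferon genes measured, Ifnb1 among them, were not called in either knockdown (0 of 5 by limma, and 0 at an unadjusted p under 0.05).

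Of 63 such genes tested with the treatments, 12 rose and 4 fell with DMSO (10.7% and 8.60% of all genes), 8 and 4 with HMBA (15.5% and 12.8%), and 10 and 8 with RA (17.0% and 10.5%). H2-D1 rose with all 3, by 1.19 ± 0.09 with DMSO, 1.41 ± 0.09 with HMBA and 1.23 ± 0.09 with RA, and so did the non-classical class I gene H2-Q7, by 1.09 ± 0.09, 0.99 ± 0.09 and 0.89 ± 0.09. Trim25, a ubiquitin ligase of the RNA sensing pathway, fell with all 3, at -1.16 ± 0.15, -0.96 ± 0.15 and -1.10 ± 0.15. Parp9, which acts in interferon signalling, rose with DMSO (0.89 ± 0.12, adjusted p = 0.00026) and was lower with RA than with DMSO (-0.999 ± 0.17, adjusted p = 0.0038) and lower with HMBA than with DMSO (-0.87 ± 0.17, adjusted p = 0.027). Pml was lower with HMBA (-1.04 ± 0.17) and RA (-1.13 ± 0.17). The other genes that differed between RA and DMSO with the smallest p were Eif2ak2, the RNA-activated kinase PKR (-0.71 ± 0.14, adjusted p = 0.0096), Pdia3 (0.83 ± 0.16, adjusted p = 0.01), a thiol oxidoreductase of peptide loading, and Psme4 (-0.77 ± 0.16, adjusted p = 0.011), a proteasome activator. Sting1, the adaptor of DNA sensing, was the one gene of this list that differed between RA and HMBA (0.50 ± 0.11, adjusted p = 0.041). Between days 2 and 6 with RA, Ifi30, a lysosomal thiol reductase, rose by 1.54 ± 0.25 (adjusted p = 0.011) and the cytokine signal transducer Stat3 by 1.23 ± 0.26 (adjusted p = 0.045). On single days H2-D1 and H2-Q7 rose with each treatment on all 3 days. The other genes among the 4 smallest p on a single day, beside Trim25 and Pml, were led with DMSO by Stat3 on day 2 (-1.02 ± 0.18), Psme4 on day 4 (1.01 ± 0.19) and Parp9 (1.30 ± 0.21) and Rtp4 (1.38 ± 0.25), an interferon target that escorts receptors to the membrane, on day 6. With HMBA the receptor kinase Jak2 rose on day 6 (1.47 ± 0.36), and with RA Pdia3 rose on day 4 (0.79 ± 0.18) and Ifi30 (0.84 ± 0.18) and the interferon receptor chain Ifnar1 (1.01 ± 0.22) on day 6. On day 6 Parp9 was higher with DMSO than with HMBA (1.86 ± 0.30) and than with RA (1.78 ± 0.30), and Rtp4 than with RA (1.75 ± 0.35).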

How the data were processed

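RNA levels were measured on 14 Affymetrix arrays of RNAi and vector cells and on 18 2-colour arrays of treated cells against untreated cells. The deposited RNAi values are log2 levels made by RMA, per the submitters' processing notes, with no version given. The 2-colour values are deposited log ratios, read as log2 although no label states the base, and per the labels they run as sample over reference whatever the dye orientation. Array medians of these ratios were 0, and their normalisation before deposit is not stated in the labels. No counts are involved, and the number of arrays limits the precision. Groups, doses and days were taken from the labels.

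Linear models were fitted to all probes with limma 3.58.1 in R 4.3.3 (lmFit and eBayes), with Benjamini-Hochberg adjustment over 45037 probe sets or 16657 probes and calls at an adjusted p under 0.05. Each gene was read from 1 probe annotated to it alone, the one with the highest mean on the RNAi arrays and the most complete one on the 2-colour arrays. Every adjusted p in the text is from limma. The fits were also run on simulated data. The simulated noise was independent between arrays and held no dye effect, so that run cannot show how the fits behave when arrays deviate together. On the 2-colour arrays the replicate number marks dye orientation, and all 36 pairs of same-numbered samples deviated together (r of 0.505 to 0.92), so results that change with orientation as a block are given in the text. The members and lists were chosen with earlier results of these data known. Values on every array are given for members called in an RNAi comparison at 0.5 log2 or more or called in the mean of days of a treatment. On the other lists, up to 4 called genes with the smallest p are named per comparison. Alternatives were other normalisations, filters, probe choices, blocks, averaging of dye-swapped arrays, and removal of single arrays. Some genes of the pathway are not reported here. Promoter windows are RefSeq's on GRCm38.p6.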

Additional observations from a re-analysis of the deposited data

Results flagged for a closer look

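Igtp on vector replicate 2 read 5.49, while the other 4 vector arrays read 5.16 to 5.20 (log2 levels), a gap that passes Dixon's critical value. It was the only one among 96 groups of arrays, and chance alone passes about 1 in 20 groups.

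The change between day 2 and day 6 passed its test within a treatment for 4 genes. Irf1 changed by -1.54 with RA and by -1.82 with HMBA. Irgm1 changed by -2.19 with RA and by -1.80 with HMBA. With DMSO, Psmb8 changed by 1.29 and Tap2 by 1.19. In comparisons added after the values had been seen, with 2 dye-swapped arrays per treatment and day, the change of Irf1 and of Irgm1 differed between DMSO and each other treatment, and that of Psmb8 and of Tap2 did not pass without dye orientation as a term.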

How the results depend on the processing

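No direction was turned by any alternative run. Among the alternatives, the share of all genes called is given only for the dye term, in the Results above. Counts of members under the others cannot be set against such a share. With the replicate number as a block, RNAi calls were 21 for Pou5f1 RNAi, 11 for Nanog RNAi and 19 between the knockdowns. The labels do not say whether these numbers pair the samples, and a check of the arrays did not settle it. With group means removed, same-numbered samples correlated at -0.246 to 0.437 (median 0.067). Differently numbered samples correlated at -0.385 to 0.373 (median 0.0075). Of 14 arrays, 9 had their highest correlation outside their group with one of the same number. With the dye orientation as a replicate block, calls were 16 for RA and 16 for HMBA, 19 for RA against DMSO, 6 for RA against HMBA, 14 for HMBA against DMSO, and 5, 10 and 9 for day 6 against day 2 with RA, DMSO and HMBA. By day they were 14, 11 and 16 for RA, 15 for DMSO day 2, and 13, 16 and 15 for HMBA, and the added comparisons gave 14, 13, 11 and 7. With complete probes alone, 18 members could be tested, and calls were 11 for DMSO, 3 for HMBA against DMSO, and 1 each for day 6 against day 2 with RA, DMSO and HMBA. Scale normalisation gave 0 for RA against HMBA. Averaging dye-swapped arrays gave 1 for RA against DMSO, 0 for RA against HMBA and 0 for HMBA against DMSO. Averaging all probes gave 1 for DMSO day 6 against day 2.

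Removal of 1 array gave 18 to 20 calls for Pou5f1 RNAi, 8 to 10 for Nanog RNAi, 17 to 20 between them, 5 to 9 for RA, 12 to 17 for DMSO and 8 to 9 for HMBA. It gave 6 to 8 for RA against DMSO, 0 to 1 for RA against HMBA, 2 to 5 for HMBA against DMSO, and 1 to 3, 0 to 0 and 1 to 2 for day 6 against day 2 with RA, DMSO and HMBA. Over single members, 741 calls were kept and 60 lost under these removals, and 27 were kept and 21 lost with averaged dye swaps. The cause was not tested, except that complete probes and removed arrays leave fewer genes or arrays.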

Other observations

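Tap1 and Psmb9 are neighbours on opposite strands, with annotated starts 226 bases apart in RefSeq on GRCm38.p6. With DMSO, Tap1 rose by 0.59 ± 0.11 (adjusted p = 0.0045), while Psmb9 gave -0.18 (adjusted p = 0.57). The difference between the 2 genes was not tested.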
